A study of Mus musculus with 6 samples.

Results

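The Eif genes encode the eukaryotic translation initiation factors, and they were examined here in stage 0 invariant natural killer T (iNKT) cells, the earliest stage of this T cell lineage in the thymus. The genes were taken from the deposited count table by symbol, as those beginning with Eif and a digit from 1 to 6. The eIF2 kinase genes (Eif2ak) and the Y-linked Eif2s3y, 5 symbols in all, were left out. This left 58 of the 48397 rows. Of these 58 members, 50 were protein-coding genes, 7 were processed pseudogenes and 1 was a long intergenic RNA, Eif2c5, whose symbol is an older name of the Argonaute series. The RNA came from 3 BALB/c libraries, the wild type, and 3 SKG libraries, from mice that carry a hypomorphic mutation of the T cell receptor kinase Zap70 on the same BALB/c background. All mice were 8 to 10 weeks old. The sorted cells bound the PBS57-CD1d tetramer and were CD44-, CD24+, CD69+, CD8- and low or negative for CD4. Each library was made from about 1000 cells pooled from 3 mice. A replicate is therefore a pool, and p-values measure the spread between pools and their library preparations together. The SKG mutation alters a residue of the protein, which a count per gene cannot show, so the genotype was not checked from the counts.

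Initiation of translation loads the small ribosomal subunit with initiator tRNA and brings it to the start codon of a messenger RNA. eIF2 carries the initiator tRNA, eIF2B recharges eIF2 with GTP, and eIF1, eIF1A and the many-subunit eIF3 keep the small subunit open for scanning. eIF4E binds the cap, eIF4G is the scaffold that joins cap and ribosome, and eIF4A is the helicase that unwinds the leader. eIF5 activates the GTPase of eIF2 and eIF5B joins the subunits, while eIF5A, despite its name, acts mainly in elongation and termination. T cells raise protein synthesis after stimulation of the T cell receptor, and the cap-binding step is controlled by 4E-binding proteins that mTOR phosphorylates.

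Between 37176544 and 43115544 reads were counted on genes per library, while genes with 10 reads or more numbered 10835 to 14791. The BALB/c replicate 1, with 11415 such genes, and the SKG replicate 3, with 10835, had the fewest in their genotypes. The summed level of 6 stage 0 iNKT markers (Cd24a, Cd69, Egr2, Zbtb16, Cd3e and Trbc1) lay between 3521 and 4533 CPM (the usual count-per-library-size unit, scaled here by TMM factors) in BALB/c and between 2954 and 3313 CPM in SKG. The markers did not go together: Egr2 (1351 and 777 CPM on average in BALB/c and SKG) and Cd69 (353 and 193 CPM) were higher in every BALB/c library, whereas Cd24a (25.1 and 70.4 CPM) and Cd3e (928 and 987 CPM) were higher in SKG on average, and the libraries overlapped for them as for Trbc1 and Zbtb16. Markers of double-positive thymocytes, which the sort on CD4 and CD8 was designed to remove, summed to 38.2 to 394 CPM in BALB/c and 54.4 to 151 CPM in SKG. The highest double-positive sum was that of the BALB/c replicate 1. The erythroid markers reported here summed to 69.7 CPM in the same library and to at most 1.57 CPM in the others, with Alas2 at 0 throughout. The 5 B cell markers summed to at most 8.38 CPM. The myeloid sum reached 107 CPM in the SKG replicate 3 and 53.7 CPM in the BALB/c replicate 1, and in both it was Lyz2 alone, with Csf1r, Itgam, Adgre1 and Cd14 at 0. The thymic epithelial sum of 86.9 CPM in the SKG replicate 3 was Epcam alone, and Psmb11 and Krt5 were at 0 in every library. The part of these cells or libraries in the values below was not tested. In RNA of pooled cells, fewer cells that express a gene and less RNA of it per cell cannot be told apart.

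Most members were abundant and differed little between the genotypes. The filter on low counts left 50 members for testing, 48 of them protein coding. No member passed an FDR under 0.1 with a fold change of at least 1.5 in edgeR's quasi-likelihood F test, as 0 of all 12312 genes did (0%). The lowest FDR was 0.641 among the members. At an unadjusted p under 0.05 stood 4 of 50 members (8%), Eif4a1, Eif4g2, Eif5a and Eif4e2, beside 671 of all genes (5.45%). DESeq2 without shrinkage called 370 of the 25935 genes it tested (1.43%), and among the members it called Eif4a1 alone. The median log2 fold change of SKG over BALB/c was -0.10 over the members and -0.02 over all genes tested, with 30 members higher in BALB/c and 20 higher in SKG on average. The log2 fold change was under 0.5 in size for 45 of 50 members, a share that was not computed for all genes. A fold change of 1.5 or more was fitted for 5 of 50 members and for 38.2% of all genes. A mean of at least 50 CPM was reached by 42 of the 50 members but by only 4744 of the 12312 genes. The shares of fold changes are therefore not matched for level.

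For 10 of the 50 tested members (20%), all libraries of a genotype lay above all libraries of the other. Among all genes tested the same held for 13.9%, and among the 4744 genes with a mean of at least 50 CPM for 16.0%, where it held for 9 of 42 members (21.4%). These shares lie near each other. Of the 50 members, 6 were higher in every BALB/c library, against 7.12% of all genes, and 4 in every SKG library, against 6.77%. The 6 make a somewhat larger share of the members than the share of all genes. The 6 were Eif4a1, Eif5a, Eif4e, Eif3k, Eif1b and Eif4ebp2, and the 4 were Eif4g2, Eif4e2, Eif3a and Eif1a.

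**Figure D1:**
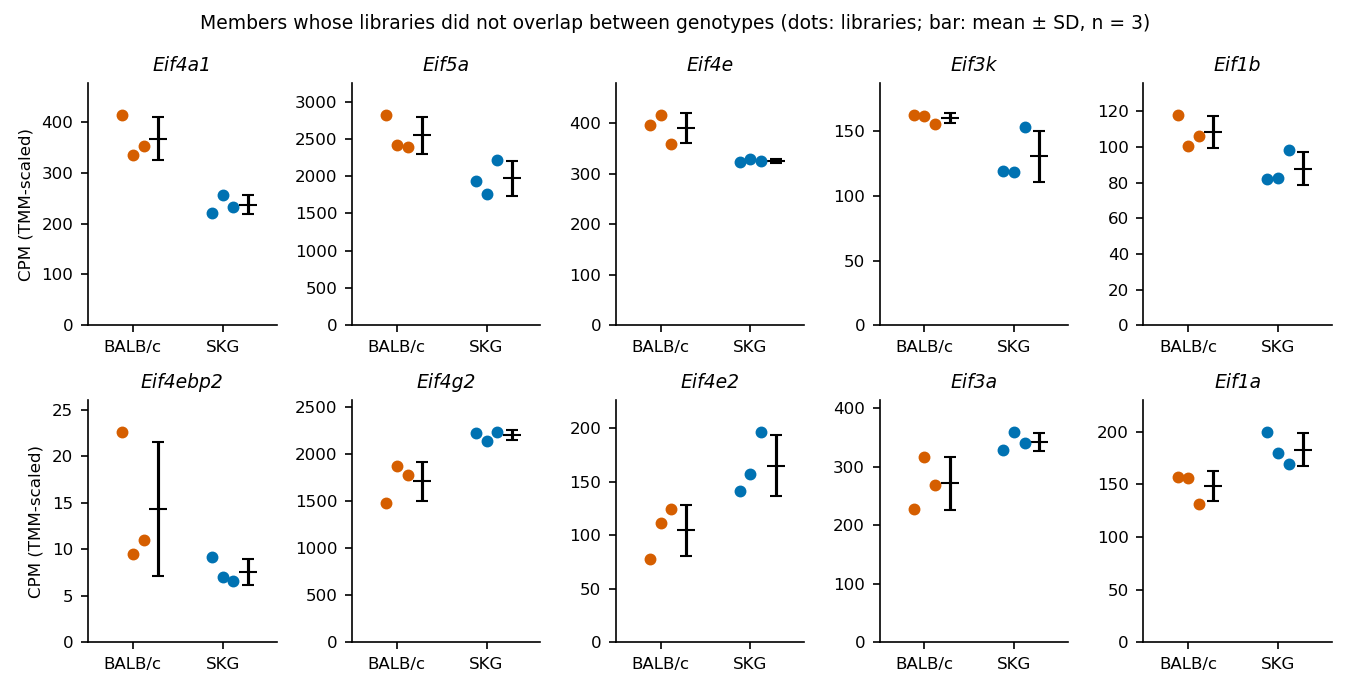
CPM (TMM-scaled, linear axes from 0) of the 10 members whose BALB/c and SKG libraries did not overlap; each dot is a library and the bars give the mean ± SD of 3. Eif4a1 stood at 336 to 415 CPM in BALB/c and 221 to 257 CPM in SKG, whereas the gap between the genotypes was narrow for Eif3k, Eif1b, Eif4ebp2 and Eif3a.

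As a share of all reads on genes, the members took 1.47%, 1.46% and 1.46% in BALB/c (replicates 1 to 3) against 1.4%, 1.35% and 1.42% in SKG (replicates 1 to 3). The exact (Clopper-Pearson) 95% interval was 1.346% to 1.353% for the lowest and 1.468% to 1.475% for the highest, and it covers counting error only. The share was thus lower in every SKG library. On the TMM scale the summed level of the members was 14500 ± 475 CPM in BALB/c and 14123 ± 458 CPM in SKG (SD, n = 3 each), and the libraries overlapped, from 13954 to 14805 CPM and from 13724 to 14623 CPM. Whether the genotypes were apart in the summed level therefore depended on the scaling. Eif5a alone averaged 2546 CPM in BALB/c and 1973 CPM in SKG, a wider gap than that between the summed levels. The lower share in SKG can therefore not be read as a trait of the members at large.

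Per length of exon, the members were among the more abundant genes of these cells. Their median was 64.4 CPM per kb against 9.47 CPM per kb for all 11937 tested genes with a length, and 45 of the 48 tested protein-coding members lay above the latter. Eif5a was the highest at 1071 ± 102 CPM per kb in BALB/c and 830 ± 97.8 CPM per kb in SKG. Eif1 followed at 626 ± 128 CPM per kb in BALB/c and 582 ± 95.9 CPM per kb in SKG. Then came Eif4a3, a helicase of the exon junction complex, at 270 CPM per kb in each genotype, and Eif4g2 and Eif3g, whose means over all libraries of 245 and 235 CPM per kb did not differ beyond their spread. The lowest 3 of the 48, Eif4ebp2, Eif3j1 and Eif5a2, stood at 1.90, 1.23 and 1.13 CPM per kb. The level of Eif3j1 may be too low, since it shares much of its sequence with Eif3j2.

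**Figure D2:**
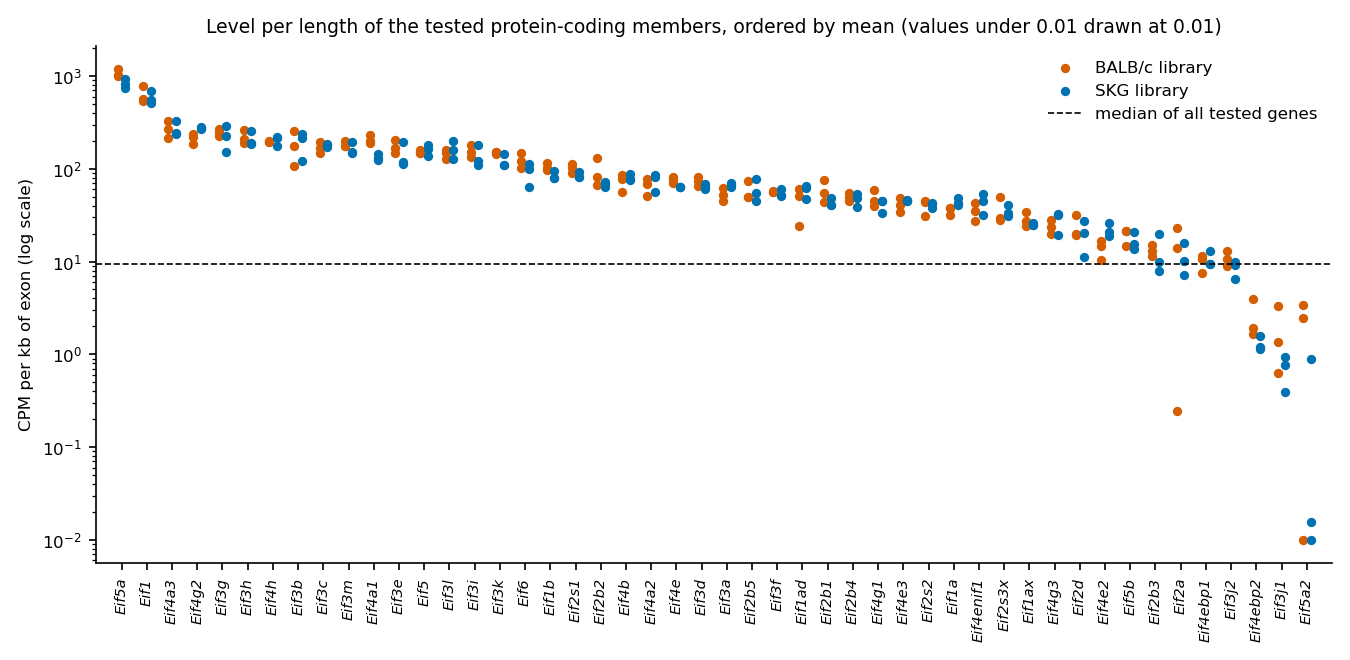
Level of the 48 tested protein-coding members as CPM per kb of exon on a log axis, ordered by their mean, with a dot for each BALB/c and SKG library and a dashed line at the median of all tested genes, 9.47 CPM per kb. Eif5a and Eif1 stand above the rest, and only Eif4ebp2, Eif3j1 and Eif5a2 have means under the line.

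Of the 4 members with an unadjusted p under 0.05, 3 carry eIF4 names, Eif4a1, Eif4g2 and Eif4e2, and the other is Eif5a. The cap-binding paralogues Eif4e and Eif4e2 were apart in opposite directions. Eif4a1 (chromosome 11, 69666936 to 69672423, GRCm38, minus strand), the main cytoplasmic eIF4A helicase, was read at 415, 336 and 352 CPM in the BALB/c libraries and at 221, 257 and 234 CPM in the SKG libraries. Every SKG library was below every BALB/c library. Its log2 fold change was -0.63 ± 0.15 (SE; edgeR, unadjusted p = 0.00437, FDR 0.641), and its DESeq2 adjusted p was 0.0516 without shrinkage and 0.0695 with shrunken fold changes. Of its 50-mers, 28.4% also occur in other genes, chiefly the processed pseudogene Eif4a-ps4, which stood at 16.9 to 23.8 CPM and shared 95.7% of its own 50-mers, so a part of its reads is uncertain. Eif4a2, the second cytoplasmic helicase, was read at 221, 161 and 246 CPM in BALB/c and 261, 181 and 276 CPM in SKG, which overlap. Eif4a3 had about the same mean in each genotype, with 407 ± 82.5 CPM in BALB/c and 407 ± 72.3 CPM in SKG (SD, n = 3 each). Of the helicase cofactors, Eif4h kept to 484 to 600 CPM over all 6 libraries and Eif4b to 232 to 357 CPM. Per kb, Eif4a1 exceeded Eif4a2 by 3.39, 3.76 and 2.59 times in BALB/c and 1.52, 2.57 and 1.52 times in SKG. The highest SKG ratio lay just under the lowest BALB/c ratio, and this ratio was formed after the values were seen.

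Eif4e (chromosome 3, 138526179 to 138559696, plus strand), the cap-binding subunit, had 397, 417 and 358 CPM in BALB/c and 322, 329 and 324 CPM in SKG. The SKG libraries lay within a few CPM of each other and below all BALB/c libraries. Its log2 fold change was -0.26 ± 0.13 (edgeR, unadjusted p = 0.0772, FDR 0.952). Eif4e2 (chromosome 1, 87213914 to 87240488, plus strand) encodes 4EHP, a cap-binding homologue that does not engage eIF4G and is known as a repressor. It had 78.1, 111 and 125 CPM in BALB/c and 141, 157 and 197 CPM in SKG, and every SKG library was the higher. Its log2 fold change was 0.66 ± 0.24 (edgeR, unadjusted p = 0.0324, FDR 0.864). Eif4e3, another cap-binding homologue, overlapped, with 86.5 to 120 CPM in BALB/c and 113 to 114 CPM in SKG, and the oocyte form Eif4e1b had 0 reads in all libraries. The ratio of Eif4e2 to Eif4e per kb was 0.135, 0.183 and 0.238 in BALB/c and 0.300, 0.326 and 0.415 in SKG, again a ratio chosen after its values were seen.

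Eif4g2 (chromosome 7, 111067750 to 111083030, minus strand) encodes DAP5, an eIF4G relative that lacks the eIF4E-binding region. It was the most abundant of the scaffolds, with 1481, 1873 and 1777 CPM in BALB/c and 2226, 2144 and 2238 CPM in SKG. The SKG libraries were higher throughout, by a log2 fold change of 0.36 ± 0.12 (edgeR, unadjusted p = 0.0242, FDR 0.834). Eif4g1, the canonical scaffold, overlapped, with 238, 353 and 274 CPM in BALB/c and 272, 269 and 200 CPM in SKG, as did Eif4g3, with 198 to 284 CPM and 195 to 328 CPM. Per kb, Eif4g2 exceeded Eif4g1 by 4.70, 4.01 and 4.91 times in BALB/c and by 6.18, 6.01 and 8.43 times in SKG. This ratio, too, was formed after the values were seen, and it repeats the difference in Eif4g2.

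Among the inhibitors of eIF4E, Eif4ebp2 had 22.6, 9.46 and 11.0 CPM in BALB/c and 9.16, 7.0 and 6.61 CPM in SKG. The BALB/c replicate 1, the library with the highest erythroid and double-positive sums, was far above the others. Its log2 fold change was -0.92 ± 0.72 (edgeR, FDR 0.991) and -0.43 without that library. Eif4ebp1, the 4E-binding protein gene with the higher level per kb, had 21.3, 23.1 and 15 CPM in BALB/c and 18.6, 26.2 and 18.8 CPM in SKG, which overlap. Eif4enif1, which encodes the eIF4E transporter 4E-T, had 112, 174 and 144 CPM in BALB/c and 218, 184 and 131 CPM in SKG. Eif4ebp3 had 0 reads in all libraries, and 67.3% of its exon bases lie under an overlapping gene on the same strand.

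**Figure D3:**
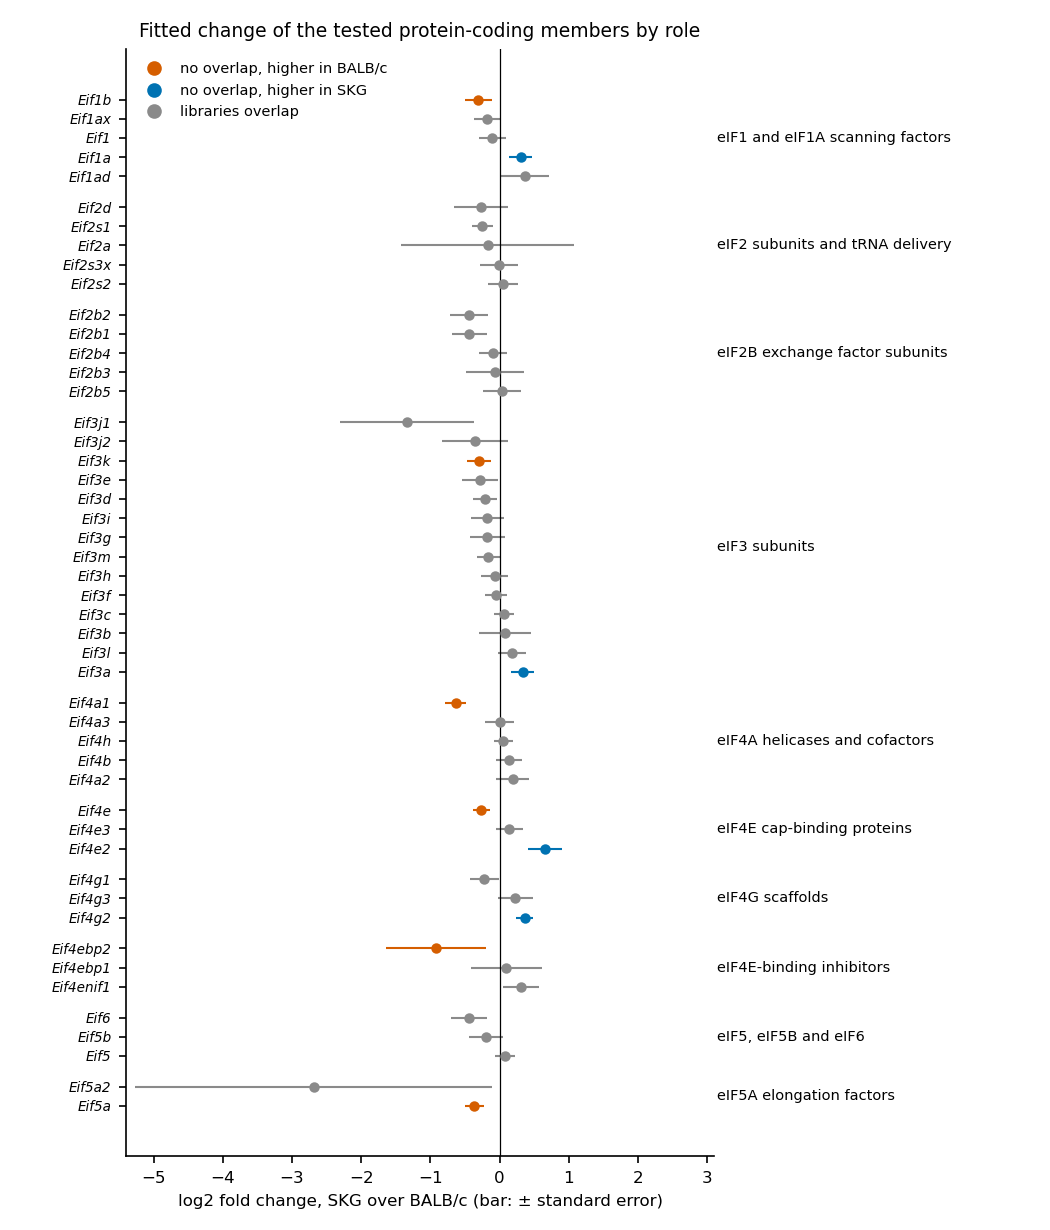
Log2 fold change of SKG over BALB/c (edgeR) with its standard error as a bar for the 48 tested protein-coding members, grouped by role; orange and blue mark members whose libraries did not overlap. Eif4a1 and Eif4e lie left of 0 and Eif4e2 and Eif4g2 right of it, and the widest bars belong to Eif5a2, Eif2a and Eif3j1.

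Of the factors that open the small subunit for scanning, Eif1 was the most abundant, with 716 to 1023 CPM in BALB/c and 668 to 911 CPM in SKG, which overlap. Its close homologue Eif1b (chromosome 9, 120492232 to 120495330, plus strand) had 118, 100 and 106 CPM in BALB/c and 82.2, 82.6 and 98.4 CPM in SKG. All BALB/c libraries were higher, but the gap between the nearest libraries was small, and the log2 fold change was -0.30 ± 0.19 (edgeR, FDR 0.982). Of the exon bases of Eif1b, 12.7% lie under D830035M03Rik on the opposite strand, so a part of its reads is uncertain. Eif1a, on chromosome 18, and its X-linked copy Eif1ax both encode eIF1A. Eif1a had 157, 156 and 132 CPM in BALB/c and 200, 180 and 169 CPM in SKG, with a log2 fold change of 0.30 ± 0.16 (edgeR, FDR 0.959). Eif1ax had 178, 141 and 125 CPM in BALB/c and 129, 127 and 136 CPM in SKG. The Eif1a libraries of the genotypes were apart and those of Eif1ax were not. Eif1ad, which encodes a protein with an eIF1A-like domain, ranged from 61.5 CPM in the BALB/c replicate 1 to 168 CPM in the SKG replicate 3.

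The eIF2 subunit genes overlapped between the genotypes. Eif2s1, which encodes the alpha subunit that the eIF2 kinases phosphorylate, had 381, 347 and 304 CPM in BALB/c and 276, 278 and 315 CPM in SKG. Its log2 fold change was -0.25 ± 0.15 (edgeR, FDR 0.972). The beta subunit gene Eif2s2 and the X-linked gamma subunit gene Eif2s3x had log2 fold changes of 0.05 and -0.01. None of the 5 eIF2B subunit genes was apart. Eif2b2, the highest of them per kb, had 208, 131 and 107 CPM in BALB/c and 102, 116 and 110 CPM in SKG, and its log2 fold change of -0.44 became -0.12 without the BALB/c replicate 1. Eif2b3, the lowest, had 46.5, 52.1 and 60.2 CPM in BALB/c and 40.2, 32.1 and 79.4 CPM in SKG. These values give no order of the genotypes.

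The 14 eIF3 subunit genes gave a median log2 fold change of -0.17, with 10 of them higher in BALB/c and 4 higher in SKG on average. Their summed level lay between 3149 and 3636 CPM in BALB/c and between 3263 and 3372 CPM in SKG, inside the BALB/c range. Eif3a (chromosome 19, 60761117 to 60790658, minus strand), the largest scaffold subunit, had 228, 318 and 270 CPM in BALB/c and 329, 360 and 340 CPM in SKG, with a log2 fold change of 0.34 ± 0.16 (edgeR, FDR 0.952). Eif3k (chromosome 7, 28971372 to 28981864, minus strand), a subunit that cells of several species can lack, had 163, 162 and 156 CPM in BALB/c and 119, 119 and 154 CPM in SKG, with a log2 fold change of -0.29 ± 0.18 (edgeR, FDR 0.972). The SKG replicate 3 was close to the BALB/c values. The subunits join in a complex with a copy of each. The 12 genes other than Eif3j1 and Eif3j2 spanned 55.7 CPM per kb (Eif3f) to 235 CPM per kb (Eif3g), a range of 4.21-fold. Lengths were of all annotated exons of a gene merged, 2514 nt for Eif3f and 1101 nt for Eif3g. The range may therefore depend in part on the annotation. Eif3f was also among the steadiest members, with 142, 144 and 143 CPM in BALB/c and 131, 128 and 154 CPM in SKG, and so was Eif3c, with 504 to 662 CPM over all libraries. Eif3g ranged more widely, with 246 to 298 CPM in BALB/c and 165 to 317 CPM in SKG. Reads of Eif3d are uncertain, since 43.3% of its exon bases lie under Gm17638 on the opposite strand and the counting took no account of strand. Exon bases also lie under other genes for Eif3j1 (20.2%), Eif5b (16.8%), Eif1ad (15.3%), Eif4e3 (14.8%), Eif4a2 (13.3%) and Eif1b (12.7%). Shared 50-mers, such as 34.6% of those of Eif2s3x and 19.2% of those of Eif1, leave further levels uncertain.

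The genes of eIF5, eIF5B and eIF6 overlapped throughout. Eif5, the GTPase activator of eIF2, had 617, 627 and 672 CPM in BALB/c and 683, 580 and 769 CPM in SKG. Eif5b, the GTPase that joins the subunits, had 166, 168 and 113 CPM in BALB/c and 122, 106 and 162 CPM in SKG. Eif6, which keeps the large subunit from joining too early, had 364, 296 and 251 CPM in BALB/c and 242, 277 and 155 CPM in SKG, with a log2 fold change of -0.44 ± 0.26 (edgeR, FDR 0.972). The Eif6 values leaned to BALB/c without being apart.

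Eif5a (chromosome 11, 69916714 to 69921958, minus strand), the elongation factor that carries the hypusine residue, had 2827, 2420 and 2392 CPM in BALB/c and 1930, 1765 and 2224 CPM in SKG. It was higher in every BALB/c library, with a log2 fold change of -0.37 ± 0.14 (edgeR, unadjusted p = 0.0323, FDR 0.864). The paralogue Eif5a2 behaved otherwise, with counts of 1, 635 and 559 for the BALB/c pools and of 181, 3 and 0 for the SKG pools, in the order of their replicate numbers. Its reads came from some libraries of each genotype and were all but missing from others of similar depth, so its log2 fold change of -2.69 had a standard error of 2.58. It was the only tested member with 0 reads in a library and at least 100 in another. In the SKG replicate 3 a count of 0 allows up to 0.0828 CPM, for counting error only. The 4 genes of the list of hypusination enzymes were all tested, and the libraries overlapped for each of them, with log2 fold changes from 0.01 to 0.18.

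Apart from a few genes, the members varied little between libraries of a genotype. The SD of log2 CPM within genotypes had a median of 0.27 over the tested members and 0.64 over all tested genes. Members are abundant, and among genes with a mean of at least 50 CPM the medians were 0.25 and 0.36. Eif2a, which encodes a factor that can deliver initiator tRNA without eIF2, was an exception, with counts of 23, 1202 and 2375 in BALB/c against 941, 1405 and 596 in SKG. The BALB/c replicate 1 stood far below the rest, and the log2 fold change of -0.17 ± 1.25 turned to 1.27 in limma-voom. Eif2d, a relative with a similar role, ranged from 46.0 CPM in the SKG replicate 3 to 132 CPM in the BALB/c replicate 1. Eif3j1 counts were 302, 663 and 155 in BALB/c against 167, 196 and 76 in SKG. Its near-identical paralogue Eif3j2 had 15.4 to 31.2 CPM. Of the 50-mers of Eif3j1 50.9% occur in other genes, and of those of Eif3j2 91.8%. The study counted only reads above a minimum mapping quality, so reads of shared sequence may be missing from both genes. Both levels are therefore uncertain and may be too low.

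**Figure D4:**
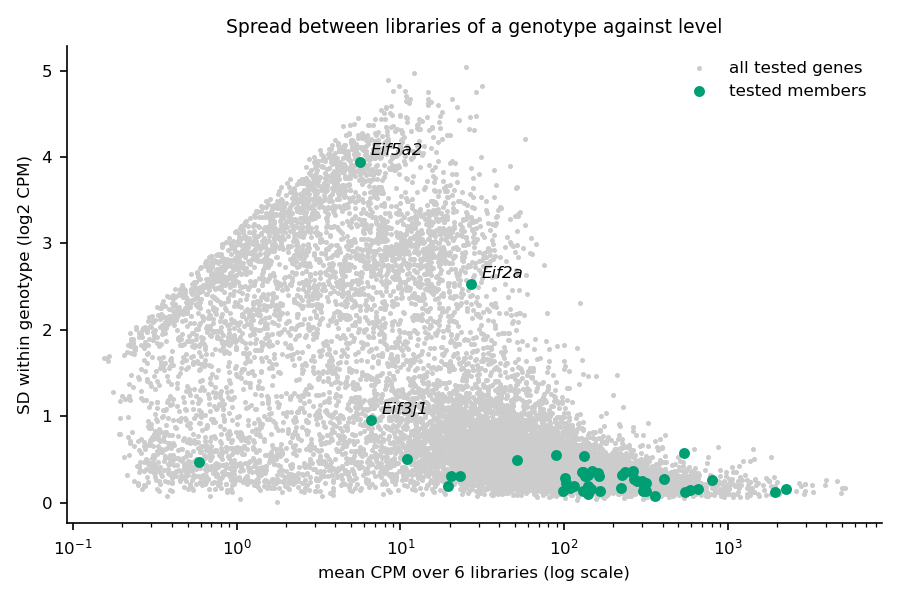
SD of log2 CPM within genotypes (vertical axis) against the mean CPM of 6 libraries (log axis) for all 12312 tested genes in grey and the 50 tested members in green. Most members lie at the abundant, low-spread edge, with Eif5a2, Eif2a and Eif3j1 above it.

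The 8 members that were not tested had at most 6 reads in any library. They were the protein-coding genes Eif4e1b and Eif4ebp3, the long intergenic RNA Eif2c5 and 5 processed pseudogenes. With 0 reads in all 6 libraries stood 3 of them, Eif2c5, Eif4e1b and Eif4ebp3. A count of 0 allows between 0.0662 and 0.0828 CPM in these libraries, for counting error only. For Eif4ebp3 this may be no upper limit, since 67.3% of its exon bases lie under another gene and its reads may have gone uncounted.

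Translation genes outside the family were read from lists of elongation factors, eIF2 kinases, cap partners and hypusination enzymes. The lists were drawn up with earlier results of these data known. Of 34 genes, 33 were tested. At an unadjusted p under 0.05 (edgeR) stood 5 of the 33, beside 5.45% of all genes. Higher in every BALB/c library were 6 of the 33, beside 7.12% of all genes. Higher in every SKG library was 1 of the 33, beside 6.77% of all genes. The shares over all genes were not matched for level. Given how the lists were chosen, the shares are a description and no test. The list of elongation and termination factors held 4 of those 5 and 4 of those 6, in each case with Eef1e1, which is in it by its symbol. In this list 8 of 9 tested genes were higher in BALB/c on average, as were 51.0% of all genes. Its median log2 fold change was -0.39. Eef1b2, which encodes the exchange factor of eEF1A, had 213, 146 and 173 CPM in BALB/c and 110, 109 and 132 CPM in SKG. Eef1e1, which encodes a protein of the tRNA synthetase complex, had 91.4, 70.5 and 82.2 CPM in BALB/c and 48.9, 53.1 and 39.0 CPM in SKG, with a log2 fold change of -0.79 ± 0.26 (edgeR, FDR 0.833) and DESeq2 adjusted p-values of 0.0695 and 0.0947 without and with shrinkage. Eef1d and Eef1g were also higher in every BALB/c library, by log2 fold changes of -0.39 and -0.49. Eef1a1, which encodes the factor that delivers aminoacyl-tRNA, had 3218, 3592 and 2674 CPM in BALB/c and 2231, 2286 and 2734 CPM in SKG, which overlap. Ddx3x, a helicase of structured leaders, and Larp1, a regulator of mRNAs with terminal oligopyrimidine tracts, were higher in every BALB/c library, by log2 fold changes of -0.87 and -0.72. The eIF2 kinase gene Eif2ak4 (GCN2) was counted at 76, 21 and 1686 reads in BALB/c against 2817, 2931 and 4387 in SKG. Its log2 fold change was 2.75 ± 1.43 (edgeR, FDR 0.954) and 6.2 without the BALB/c replicate 3, so the BALB/c libraries decided its size.

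Promoters were read from RefSeq (GRCm38.p6), from 250 bases before to 50 bases after each start, and 39 of the 58 members matched, with 51 promoters. They were searched for the E-box CACGTG, a palindrome that reads the same on both strands and that Myc-family, USF and TFE factors are known to bind. It was in 12 of the 51 member promoters (23.5%), in 7.15% of all 32851 promoters and in 10.4% of the 10733 promoters of tested genes. Promoters of Eif5a overlap, so the same site there counts more than once among the 12. By gene, it was in a promoter of 5 of the 6 members that were higher in every BALB/c library. The same held for 1 of the 2 matched members that were higher in every SKG library, and for 4 of the 30 matched members whose libraries overlapped. These groups come from the same libraries, and the share by gene was not computed for all tested genes that were apart. The split therefore has no matched background, and a link of the motif to genotype was not tested. Windows are shown for those 5 members that were higher in BALB/c and for Eif3a, as members whose libraries were apart. The motif is in capitals with 12 bases on each side, and each sequence is on the strand of its gene.
Eif4a1, chr11:69672595-69672624, 189 bases before the start: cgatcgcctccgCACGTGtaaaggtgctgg
Eif5a, chr11:69921443-69921472, 74 bases before a start: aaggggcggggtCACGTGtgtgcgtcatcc
Eif5a, chr11:69920791-69920820, 178 bases before another start: gcgctgcgcggcCACGTGaggtgggggagg
Eif4e, chr3:138527028-138527057, 228 bases before the downstream start: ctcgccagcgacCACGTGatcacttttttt
Eif4e, chr3:138527192-138527221, 64 bases before the downstream start: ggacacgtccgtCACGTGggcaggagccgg
Eif3k, chr7:28981915-28981944, 44 bases before the start: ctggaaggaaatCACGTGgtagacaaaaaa
Eif1b, chr9:120492570-120492599, 24 bases before the start: cgtgcggacggtCACGTGgcggcggcgcgc
Eif3a, chr19:60790654-60790683, 22 bases after the start: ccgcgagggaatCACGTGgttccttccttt
Eif4e and Eif5a have several RefSeq starts, the promoter of the most upstream start of each held no match, and the windows shown lie downstream of that start. The RefSeq start of Eif1b lies inside the gene span given above, and so does its window. A match describes these letters and is no measure of binding. Eif4ebp2 and Eif4e2 had promoters without a match, and Eif4g2 and Eif1a were not matched to a promoter.

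Longer members leaned to SKG and shorter ones to BALB/c. Exon lengths were split at the members' median of 2555 nt. Of the 24 longer members, 4 were higher in every SKG library (16.7%) and 2 in every BALB/c library (8.33%), and their median log2 fold change was 0.06. Of the 24 shorter members, 0 were higher in every SKG library and 4 were higher in every BALB/c library (16.7%), and their median was -0.17. Genes of at least 50 CPM showed the same order at this split, with medians of 0.12 over 3101 longer and -0.11 over 1535 shorter genes. Of those longer genes, 11.8% were higher in every SKG library and 3.97% in every BALB/c library, and of the shorter genes 4.36% and 12.1%. Eif4a1, Eif5a, Eif3k and Eif1b are shorter than the split, Eif4e and Eif4ebp2 are longer, and all 4 members that were higher in SKG are longer. Across genes, Spearman's rho between length and log2 fold change was 0.26 over the 48 members and 0.24 over 4636 genes of at least 50 CPM, as a description of genes that share the same 6 libraries. Pearson's r with log2 length was 0.02 and 0.21, and over the members it includes Eif5a2. The median deviation of the longer members minus that of the shorter ones was -0.29, 0.05 and -0.06 on the log2 scale for the BALB/c replicates (1 to 3) against 0.17, 0.14 and -0.01 for SKG, so the libraries of the genotypes overlapped in it. The part of transcript length in the values of single members was not tested.

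**Figure D5:**
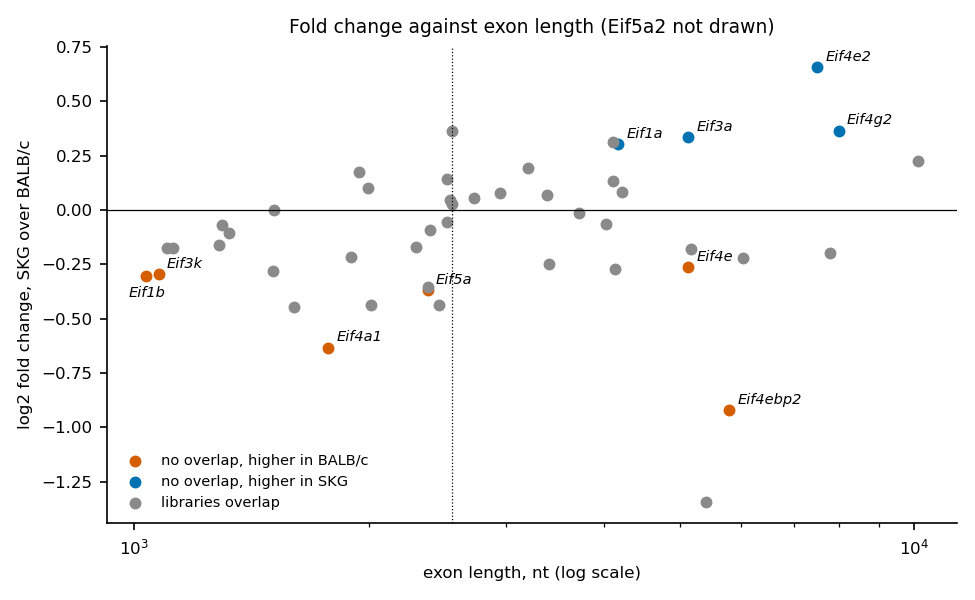
Log2 fold change of SKG over BALB/c (edgeR) against exon length on a log axis for the tested protein-coding members other than Eif5a2, which lies at -2.69; the dotted line marks the split at 2555 nt. All 4 members that were higher in every SKG library lie right of it, and 4 of the 6 that were higher in every BALB/c library lie left of it.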

How the data were processed

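RNA of 3 BALB/c and 3 SKG pools was sequenced as single-end reads of 50 nt. The labels name the SMART-Seq v4 kit and the study's methods a SEQR kit. The authors aligned the reads with HISAT2 2.1.0 to GRCm38 and deposited counts per gene from featureCounts (Subread 1.4.4), which took reads on exons of Ensembl genes without regard to strand and without normalization. Reads below a minimum mapping quality were not counted. A second table held the authors' DESeq2 comparison and was not used. The counts entered edgeR 4.0.16 in R 4.3.3 (filterByExpr, TMM, quasi-likelihood F test, Benjamini-Hochberg FDR over 12312 genes, without covariates). Calls needed an FDR under 0.1 with a fold change of 1.5 or more. The SE was taken as the size of the log2 fold change over the root of F. DESeq2 1.42.0, limma-voom (limma 3.58.1), RLE factors, library size, other filters, replicate blocks and leaving out libraries were alternatives. Libraries with the same title number had residual correlations of -0.0920, -0.00962 and -0.145, and those with the same library number -0.0384 and 0.00289, so they were not paired. Exon lengths (all exons of a gene in the basic annotation, merged), positions and shared 50-mers came from GENCODE M21 (GRCm38). The fits were tested on simulated data. Members, lists and tests were chosen with earlier results of these data known. Named with values per library were members with an unadjusted p under 0.05, without overlap, highest or lowest per kb in a role, with the 5 largest or smallest ranges, or with 0 reads in a library and 100 in another, 8 named in the rule itself (Eif4e, Eif4ebp1, Eif4ebp2, Eif2s1, Eif5a, Eif6, Eif4a1, Eif4g1), and other translation genes with an unadjusted p under 0.05 or no overlap. A marker gene is not reported here.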

Additional observations from a re-analysis of the deposited data

How the results depend on the processing

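The edgeR fit called 0 members, with 4 at an unadjusted p under 0.05, and the same 0 came from limma-voom, both other scalings, both filters, both replicate blocks, each library left out, and both libraries with the fewest genes left out, which was added after seeing the data. DESeq2 called 1 member, Eif4a1, with and without shrinkage. Over all genes DESeq2 called 370 without and 229 with shrinkage, and edgeR without a filter called 2. With the title number as a replicate block 2 members had an unadjusted p under 0.05, and with the library number as a block 1, with medians of -0.10 and -0.12. The blocks changed no call, but edgeR had called no gene without them, and they leave little to estimate the spread from. By library number, the BALB/c replicate 3 and the SKG replicate 1 have no partner and add nothing to the contrast. The blocks are thus a weak check. Leaving out a library gave 0 members and 0 genes called, 2 to 5 members at an unadjusted p under 0.05 and member medians of -0.14 to -0.06. Among 40 named genes and 16 alternatives, 28 values turned sign, in 10 genes whose genotypes overlapped. Eif2a went to 1.27 in limma-voom and to 0.80 and 2.48 with the title and library number as a replicate block. With the library number as block, Eif2b3 went to 0.037 and Eif3c to -0.024. Eif4a3 went to -0.0076 in limma-voom, -0.037 by library size and -0.0030 without a filter. Without both libraries with the fewest genes, Eif2d went to 0.30, Eif3g to 0.11 and Eif5 to -0.032. With a library left out, the log2 fold changes ran from -0.23 to 0.080 for Eif1, -0.74 to 0.63 for Eif2a, -0.54 to 0.18 for Eif2b3, -0.59 to 0.023 for Eif2d, -0.013 to 0.19 for Eif3c, -0.13 to 0.0041 for Eif3f, -0.42 to 0.050 for Eif3g, -0.14 to 0.16 for Eif4a3, -0.072 to 0.22 for Eif4ebp1 and -0.0049 to 0.19 for Eif5. The causes were not tested. With 3 pools a genotype, the precision of most members rests on the spread between libraries. Pool and library preparation cannot be told apart in it, and the part of read depth was not tested.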
